A study of Homo sapiens with 16 samples.

Results

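Untreated HL-60 cells labelled as differentiated (dHL-60) were set against untreated undifferentiated HL-60 cells (uHL-60), which shows how the RNA of the 2 cell states differed without any bacterial stimulus. The libraries were chosen by their titles and by the matching columns of the count table, which gave 6 of the 16 libraries of the series. They were 2 dHL-60 libraries collected at 4 h, 2 dHL-60 libraries collected at 24 h, 1 uHL-60 library collected at 4 h and 1 uHL-60 library collected at 24 h. All 6 came from the human line HL-60, carried the genotype label WT followed by the word differentiated or undifferentiated, and received none of the Staphylococcus aureus lipoteichoic acid given elsewhere in the series. The series title calls the differentiated cells neutrophil-like. The agent and duration of differentiation are not named in the sources used here, nor is it said whether uHL-60 cells were handled in parallel. By the series text each uHL-60 condition has a single biological replicate and the dHL-60 libraries are duplicates, with no word on separate cultures. The p-values below therefore reflect library-to-library spread only, which may be technical, and a batch common to all uHL-60 libraries, if there was one, cannot be told apart from the state of the cells.

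HL-60 is a myeloid leukaemia line whose cells resemble promyelocytes, the granulocyte precursors that fill their primary granules with myeloperoxidase and serine proteases while they still divide. Maturing neutrophils and monocytes leave the cell cycle and build the surface receptors that sense chemoattractants, antibodies, complement and microbial products. They also assemble the NADPH oxidase, which produces superoxide, and store the calcium-binding proteins S100A8 and S100A9 in the cytoplasm.

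The 4 dHL-60 libraries held between 9779987 and 16530277 counts, and the 2 uHL-60 libraries held 20157081 and 18791320. Levels are given as CPM, counts scaled to a common library size (TMM), always with dHL-60 replicate 1 before replicate 2. In the deposited table the uHL-60 columns follow a plain character sort of the gene symbols, which puts 1343 symbols on another row, and they were realigned first. Across those symbols the correlation of log2 mean counts between the cell states was 0.252 as deposited and 0.904 once realigned, against 0.949 for the symbols that had not moved.

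Symbols that share exons with another gene behaved unlike the rest. Of 203 symbols with at least 5 CPM in either state and more than 50% of their exon sequence inside exons of a neighbour of the same orientation, 99 (48.8%) were over 16-fold lower in dHL-60. The same held for 23 of 8285 symbols without such overlap or near-identical copies (0.278%). PRG2, a granule protein of eosinophils and promyelocytes, is an example, at 0.745, 1.33, 15 and 18.8 CPM in dHL-60 against 4808 and 4684 CPM in uHL-60. The plot of ratios by exon sharing shows the whole distribution. Whether the columns of both cell states were counted with the same settings is not stated and was not tested. Symbols with over 10% shared exon bases, with near-identical copies or without an exon model were therefore set aside, and the 18658 symbols left are called kept. All gene counts below are over kept symbols unless others are named.

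**Figure D1:**
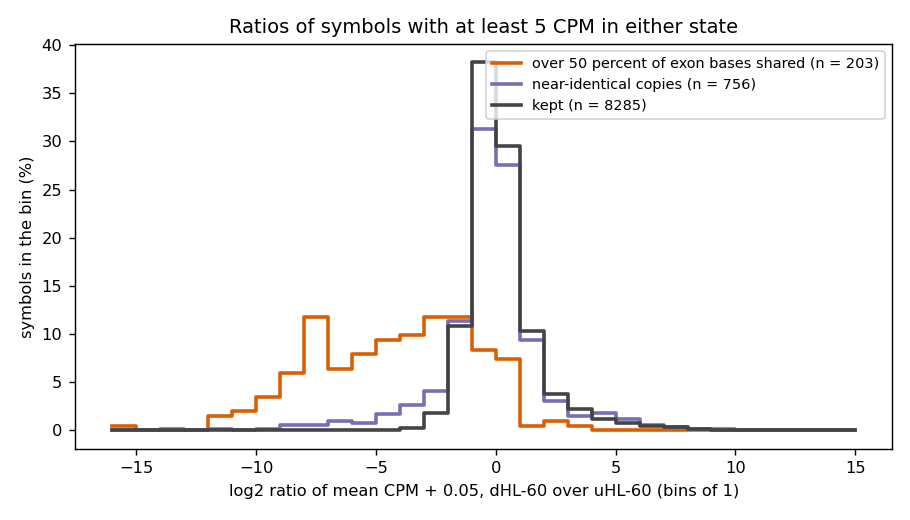
Distribution of log2 ratios, dHL-60 over uHL-60, of the mean CPM plus 0.05 for symbols with at least 5 CPM in either state (x axis, bins of 1), as the percent of symbols in each bin (y axis). The 203 symbols with over 50% shared exon bases spread far to the lower side, while the 8285 kept symbols centre near 0 with a longer tail on the higher side.

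Most of the measured genes differed between the cell states, and large differences were more often gains than losses in dHL-60. Of 9858 kept symbols with enough counts to test, 5570 (56.5%) were called at an adjusted p under 0.05 by edgeR's quasi-likelihood test with time as an additive term. In dHL-60, 3010 were higher (30.5%) and 2560 were lower (26.0%). Calls in the gene lists below, with both times together, stand against these shares. At least 8-fold differences were 763 on the higher and 132 on the lower side, and at least 64-fold differences were 207 and 53. The levels of the 4 dHL-60 and the 2 uHL-60 libraries did not overlap for 6900 symbols (70.0%). The median log2 fold change over all kept symbols tested was 0.05. With genes split into 5 equal bins of exon length it was 0.30 for the shortest genes and -0.06 for the longest, and the part of length in the results was not tested. Fewer cells with a transcript and less of it per cell cannot be told apart in such bulk RNA. Where a list below has 0 calls in a direction, DESeq2 and limma-voom also called 0. At an unadjusted p under 0.05 edgeR found only 1 antigen presentation gene, on the lower side. Group means over all 16 libraries called 3 genes lower in 3 of 12 such lists and 2 higher in 1 of 4. The fit without a filter on low counts called 1 higher, as did the fit without dHL-60 at 24 h replicate 2. Leaving out single uHL-60 libraries also added calls.

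Among the genes with the largest gains were membrane channels, receptors and secreted immune regulators with no count at all in uHL-60. AQP9, a channel for water and glycerol found in leukocytes, had 72.4, 48.2, 2.57 and 1.60 CPM in dHL-60 at 4 h and 24 h and 0 in both uHL-60 libraries. It was thus at least 312-fold higher in dHL-60, against a floor of 3 counts over the uHL-60 libraries together. The 24 h libraries were far below the 4 h libraries. COLEC12, a scavenger receptor with a lectin domain, was at least 287-fold higher, at 36.1, 32.2, 16.5 and 15.6 CPM in dHL-60 and 0 in uHL-60. TNFRSF18, a costimulatory receptor of the TNF receptor family, was at least 223-fold higher, and EBI3, a subunit of interleukin-27 and interleukin-35, at least 170-fold. MIA2, which acts in the export of large cargo from the endoplasmic reticulum, was at least 317-fold higher and had nearly the same level at both times, 26.0, 27.7, 27.1 and 22.5 CPM in dHL-60.

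Other leading genes had 1 to 3 counts in uHL-60, so that only a wide range of ratios can be given. IGSF6, an immunoglobulin-family receptor of myeloid cells, had 202, 143, 55.4 and 42.2 CPM in dHL-60 against 0.107 and 0.0554 CPM in uHL-60, a ratio of 1212 with a 95% exact counting interval of 414 to 5877. PLA2G7, the enzyme that inactivates platelet-activating factor, had 57.1, 47.1, 22.1 and 16.3 CPM in dHL-60 against 0.0534 and 0 CPM in uHL-60. For both of these genes every dHL-60 library lay above both uHL-60 libraries. The rule that picked them also took TRIM69, BEST1 and the small nucleolar RNA SNORD104.

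The classic surface markers of maturation set the cell states apart completely. CD14, the coreceptor for lipopolysaccharide and lipoteichoic acid (chromosome 5, 140631732 to 140633701, GRCh38), had 600, 459, 156 and 148 CPM in dHL-60 against 0.694 and 0.443 CPM in uHL-60. Its log2 fold change was 9.11 ± 0.37 (SE; adjusted p = 7.15e-07). ITGAM, the CD11b chain of complement receptor 3 (chromosome 16, 31259975 to 31332877), had 133, 128, 69.0 and 71.3 CPM in dHL-60 against 1.23 and 2.27 CPM in uHL-60 (log2 fold change 5.74 ± 0.41, adjusted p = 1.16e-05). In both genes the 4 h dHL-60 libraries were the highest and the 24 h dHL-60 libraries still lay far above uHL-60. ITGAX, the CD11c chain, had 173, 165, 62.7 and 70.3 CPM in dHL-60 against 0.534 and 0.554 CPM in uHL-60 (log2 fold change 7.65 ± 0.36). ITGB2, the chain that pairs with both, rose by 2.34 ± 0.22 on the log2 scale.

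**Figure D2:**
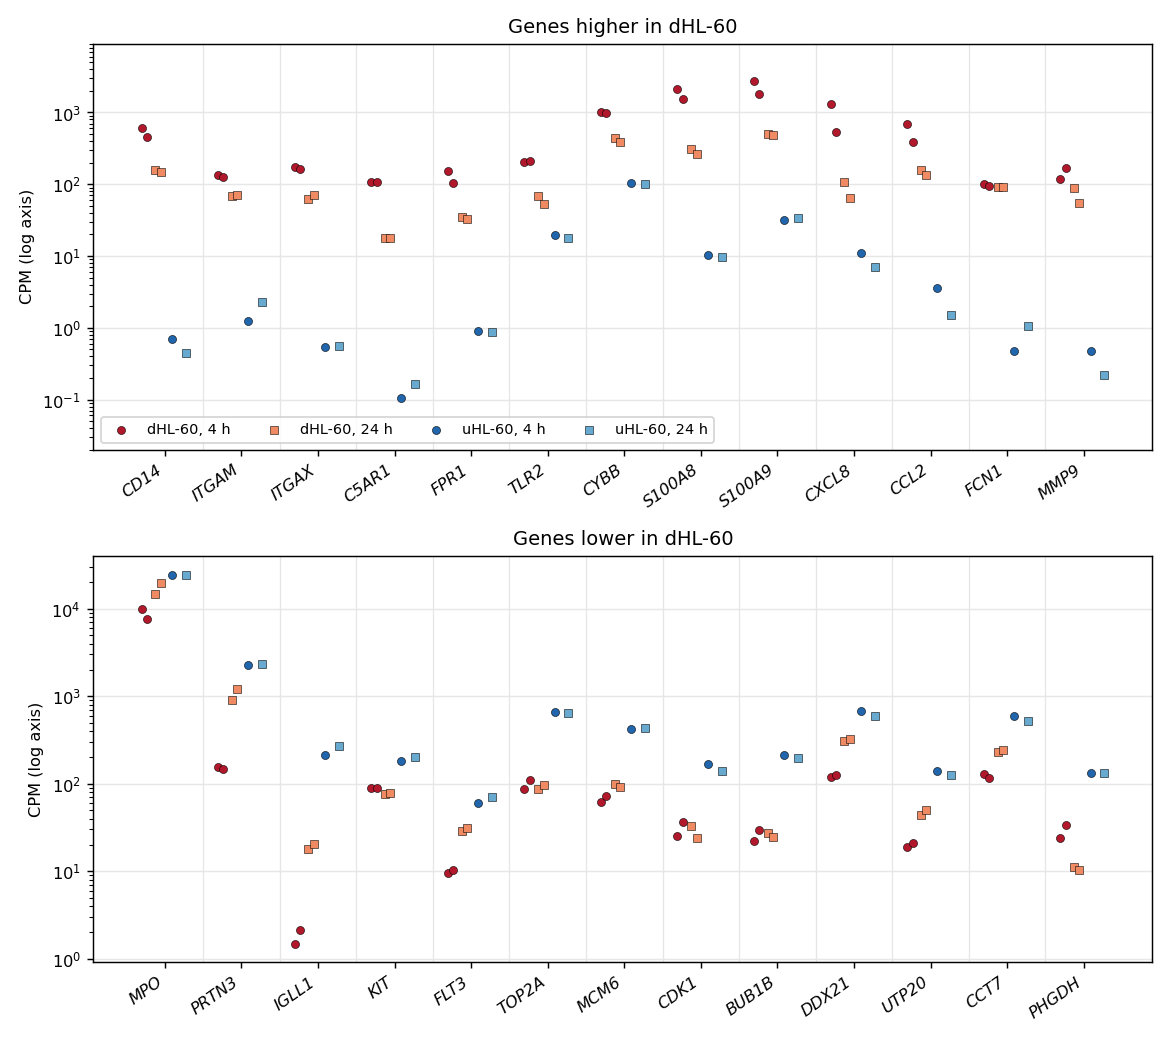
CPM on a log axis of 13 genes higher and 13 genes lower in dHL-60 (x axis), 1 point per library: dHL-60 at 4 h and 24 h on the left of each gene and uHL-60 at 4 h and 24 h on its right. CD14 lies between 148 and 600 CPM in dHL-60 and under 1 CPM in uHL-60, while TOP2A lies between 86.7 and 110 CPM in dHL-60 and at 652 and 645 CPM in uHL-60.

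Of 15 integrin and adhesion genes tested, 8 were higher in dHL-60 and 1 was lower, against 30.5% and 26.0% of all kept symbols. Their median log2 fold change was 1.60. ICAM1, an adhesion ligand for leukocyte integrins, had 181, 101, 32.3 and 33.8 CPM in dHL-60 against 0.640 and 0.554 CPM in uHL-60. PECAM1, an adhesion molecule shared by leukocytes and endothelium, had 320, 210, 79.9 and 80.3 CPM in dHL-60 against 1.97 and 2.10 CPM in uHL-60. No library of one state reached the range of the other for either gene. CD44, the hyaluronan receptor, rose by 2.32 ± 0.21. The gene called lower was ITGB1, the chain of the fibronectin-binding integrins, at -1.08 ± 0.17, while its partner ITGA4 was at -0.25 ± 0.31 and was not called. Without uHL-60 at 24 h ITGA4 was called lower, at -0.91 (adjusted p = 0.00206).

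Receptors for chemoattractants rose in dHL-60 as a group. Of 21 tested, 17 were higher and 1 was lower, with a median log2 fold change of 3.23 against 0.05 over all kept symbols. Without uHL-60 at 4 h 15 were higher and 3 lower, with a median of 1.84. C5AR1, the receptor for the complement fragment C5a, had 106, 106, 18.0 and 17.6 CPM in dHL-60 against 0.107 and 0.166 CPM in uHL-60 (log2 fold change 8.64 ± 0.49, adjusted p = 3.03e-06). The second C5a receptor, C5AR2, rose by 6.89 ± 0.42. FPR1, a receptor for bacterial formyl peptides named here after its values were seen, had 152, 103, 34.5 and 32.5 CPM in dHL-60 against 0.907 and 0.886 CPM in uHL-60. All 3 receptors had their highest levels in the 4 h dHL-60 libraries, and no uHL-60 library reached the lowest dHL-60 library. FPR2, its relative, rose by 3.81 ± 0.47 and LTB4R, the leukotriene B4 receptor, by 1.99 ± 0.19. GPR84, a receptor for medium-chain fatty acids, and P2RY13, a receptor for ADP, rose by 6.41 ± 0.68 and 7.36 ± 0.40. P2RY2, the receptor for ATP and UTP, was the one called lower, at 55.8, 65.2, 95.7 and 121 CPM in dHL-60 against 515 and 489 CPM in uHL-60 (log2 fold change -2.65 ± 0.23).

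All 12 tested Fc and inhibitory receptor genes were higher in dHL-60, with a median log2 fold change of 3.45. FCER1G, the signalling chain of several Fc receptors, had 401, 296, 95 and 101 CPM in dHL-60 against 15.2 and 24.1 CPM in uHL-60 (log2 fold change 3.09 ± 0.54). PILRA, an inhibitory receptor, had 120, 101, 59.0 and 58.4 CPM in dHL-60 against 1.33 and 0.997 CPM in uHL-60 (6.14 ± 0.27). SIGLEC9, a sialic acid-binding inhibitory receptor, rose by 6.36 ± 0.43, and SIRPA, which binds CD47, by 1.65 ± 0.28. The list has 25 genes, and 12 of them, FCGR1A, FCGR3A, FCGR3B and most leukocyte immunoglobulin-like receptors among them, were set aside for copies or shared exons.

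Among 14 lectin, complement and scavenger receptor genes tested, 8 were higher and 3 were lower, against 30.5% and 26.0% of all kept symbols. FCN1, the lectin ficolin-1, had 99.5, 95.2, 90.1 and 91.3 CPM in dHL-60 against 0.480 and 1.05 CPM in uHL-60 (log2 fold change 6.94 ± 0.33). CLEC7A, the receptor for fungal beta-glucan, rose by 6.52 ± 0.35 and CR1, complement receptor 1, by 4.73 ± 0.37. FCN1 was nearly level between 4 h and 24 h, whereas OLR1, the oxidised LDL receptor, had 32.2, 30.0, 0.0572 and 0 CPM in dHL-60 against 0.0534 and 0 CPM in uHL-60. The OLR1 signal was thus in the 4 h dHL-60 pair. CLEC4D, CD59, an inhibitor of the complement membrane attack complex, and SCARB1 were the 3 called lower. SCARB1 lost its call with 4 of 6 libraries left out in turn (adjusted p up to 0.673), and OLR1 without uHL-60 at 4 h (adjusted p = 0.439).

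Toll-like receptors and their coreceptors were mostly higher, 9 of 12 tested, with 1 lower. TLR8, an endosomal sensor of single-stranded RNA, had 33.0, 32.1, 16 and 16.8 CPM in dHL-60 against 0.213 and 0.277 CPM in uHL-60 (log2 fold change 6.55 ± 0.37). TLR2, the receptor for bacterial lipoproteins, had 202, 213, 68.5 and 52.6 CPM in dHL-60 against 19.6 and 18.0 CPM in uHL-60 (2.51 ± 0.38), and its partners TLR1 and TLR6 rose by 1.88 ± 0.33 and 2.89 ± 0.42. Unlike TLR8, TLR2 was well above 10 CPM in both uHL-60 libraries. TLR4, the receptor for lipopolysaccharide, rose by 1.00 ± 0.18. Its cofactor LY96 stayed low, at 0.851, 1.25, 1.03 and 0.798 CPM in dHL-60 against 0.0534 and 0.0554 CPM in uHL-60. TLR7 was called lower on few counts, at or under 0.356 CPM in dHL-60 against 0.854 and 0.886 CPM in uHL-60.

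The S100 genes and several genes of the phagocyte oxidase were higher in dHL-60. All 8 S100 genes tested were higher in dHL-60, with a median log2 fold change of 4.02. S100A8 (chromosome 1, 153390032 to 153422583), which pairs with S100A9 to form calprotectin, had 2149, 1525, 313 and 261 CPM in dHL-60 against 10.4 and 9.74 CPM in uHL-60 (log2 fold change 6.02 ± 0.66, adjusted p = 0.000116). S100A9 had 2753, 1832, 503 and 484 CPM in dHL-60 against 31.6 and 33.8 CPM in uHL-60 (4.87 ± 0.58). For this pair of genes every dHL-60 library lay far above both uHL-60 libraries, and the 4 h dHL-60 libraries were the highest. S100A12, another alarmin of neutrophils, had 21.8, 12.6, 4.12 and 3.99 CPM in dHL-60 against 0.160 and 0 CPM in uHL-60. S100A4 and S100A11, which are found in many cell types, rose by 2.30 ± 0.30 and 1.76 ± 0.39.

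Of the 8 tested genes of the phagocyte oxidase, 5 were higher in dHL-60 and 0 were lower at the adjusted threshold in edgeR. Among all kept symbols 30.5% were higher and 26.0% lower. For the oxidase genes the number called higher changed with single libraries left out. The count was 3 without dHL-60 at 24 h replicate 2 or without either dHL-60 library at 4 h, and 2 without uHL-60 at 4 h. CYBB, the membrane subunit that passes the electrons, had 1022, 979, 441 and 392 CPM in dHL-60 against 104 and 100 CPM in uHL-60 (log2 fold change 2.62 ± 0.31). The smaller membrane subunit CYBA had 232, 218, 112 and 156 CPM in dHL-60 against 123 and 137 CPM in uHL-60, and these ranges overlapped. CYBA was not called, except without uHL-60 at 24 h, where it was higher by 0.85 on the log2 scale (adjusted p = 0.00465). NCF4, RAC2 and RAC1 rose by 0.90 ± 0.23, 0.86 ± 0.30 and 0.54 ± 0.20. The calls of these 3 genes each depended on single libraries: leaving out 1 library at a time, the highest adjusted p was 0.0662 for NCF4 (without uHL-60 at 4 h), 0.344 for RAC2 and 0.372 for RAC1. NCF1, the p47 subunit, has near-identical copies in the genome and is not read further.

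Of 13 primary granule genes tested, 4 were higher and 4 were lower, shares near the 30.5% and 26.0% of all kept symbols, with a median log2 fold change of -0.24. The median was 0.10 without uHL-60 at 4 h. MPO, myeloperoxidase (chromosome 17, 58269855 to 58280935), had 9910, 7536, 14765 and 19681 CPM in dHL-60 against 24049 and 24477 CPM in uHL-60 (log2 fold change -1.01 ± 0.28, adjusted p = 0.0127). MPO was lower in all 4 dHL-60 libraries, and lowest at 4 h. Its call was lost without dHL-60 at 24 h replicate 1 or without uHL-60 at 4 h, with log2 fold changes from -1.47 to -0.51 and adjusted p up to 0.18 over the 6 libraries left out in turn. PRTN3, proteinase 3, had 155, 147, 917 and 1219 CPM in dHL-60 against 2304 and 2308 CPM in uHL-60 (-2.76 ± 0.54). ELANE, neutrophil elastase, and AZU1, azurocidin, which lie beside PRTN3 on chromosome 19, were instead higher in dHL-60, by 0.67 ± 0.24 and 1.21 ± 0.23. The call of ELANE was lost with 4 of the 6 libraries left out in turn (adjusted p up to 0.243). CFD, the complement protease factor D, rose by 1.56 ± 0.29 and RNASE2, the eosinophil-derived neurotoxin, by 1.01 ± 0.21. SRGN, the granule proteoglycan, had 1556, 1462, 3548 and 2827 CPM in dHL-60 against 2499 and 1848 CPM in uHL-60 and was not called. Without uHL-60 at 4 h, SRGN was called higher, with a log2 fold change of 0.78, and without uHL-60 at 24 h lower, at -0.74.

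Of 17 kept genes of later granules 9 could be tested, and 7 were higher and 1 was lower. The lower call was absent with upper-quartile scaling and without a time term. The median log2 fold change was 3.72, or 2.95 with the members of 3 or fewer counts in 1 state set at their count ratio. It was 2.54 without uHL-60 at 4 h and 4.42 without uHL-60 at 24 h. MMP9, gelatinase, had 118, 168, 87.5 and 55.4 CPM in dHL-60 against 0.480 and 0.221 CPM in uHL-60 (log2 fold change 8.23 ± 0.41). CHI3L1, a chitinase-like protein of specific granules, had 1745, 1714, 335 and 367 CPM in dHL-60 against 107 and 122 CPM in uHL-60 (2.59 ± 0.53), and HP, haptoglobin, rose by 4.70 ± 0.47. The defining specific granule proteins were near 0 in both states: LTF, LCN2, MMP8, OLFM4 and CRISP3, which were named after their values were seen, had at most 0.286 CPM in any dHL-60 library and at most 0.221 CPM in either uHL-60 library. CAMP, cathelicidin, had 0.851, 1.69, 0.172 and 0.160 CPM in dHL-60 and 0 in uHL-60.

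The dHL-60 label was also checked against the markers of other cell types. Monocyte and macrophage markers were present beside the neutrophil genes: 7 of 9 tested were higher in dHL-60 and 0 lower. The summed level of the list was 970 to 1232 CPM in dHL-60 and 335 to 354 CPM in uHL-60. This sum covers all listed members and includes CD68, which was set aside. CSF1R, the receptor for the macrophage growth factor, had 74.3, 45.0, 25.1 and 24.5 CPM in dHL-60 against 1.28 and 2.49 CPM in uHL-60 (log2 fold change 4.29 ± 0.51), and VSIG4, a complement receptor of macrophages, rose by 6.03 ± 0.58. CSF3R, the receptor for the neutrophil growth factor G-CSF, had 758, 613, 261 and 318 CPM in dHL-60 against 92.5 and 119 CPM in uHL-60 (2.01 ± 0.37). Genes of both lineages were thus higher in the same libraries. The macrophage genes CD163, MRC1 and MARCO had at most 0.267 CPM in any of the 6 libraries, and MSR1 had 0 counts in all.

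Lymphocyte markers summed to at most 11.03 CPM in dHL-60 and 4.98 CPM in uHL-60, with 2 of 3 tested higher, and 0 without uHL-60 at 4 h. Markers of eosinophils, basophils and mast cells, of which 1 of 4 tested was higher and 2 were lower, summed to 32.5 to 40.01 CPM in dHL-60. In uHL-60 their sum was 4830 and 4707 CPM, nearly all of it from PRG2, which was set aside. CCR3, the eotaxin receptor, was the one called higher, at 35.5, 25.4, 10.6 and 7.98 CPM in dHL-60 against 0.107 and 0.498 CPM in uHL-60. EPX, eosinophil peroxidase, had 0.532, 4.54, 3.32 and 1.84 CPM in dHL-60 against 12.5 and 14.3 CPM in uHL-60. Red cell and platelet markers, with 3 of 5 tested higher and 1 lower (0 higher without uHL-60 at 4 h), summed to 55.5 and 59.2 CPM in dHL-60 at 4 h and 11.04 and 9.81 CPM at 24 h, against 12.9 CPM in each uHL-60 library. Most of the 4 h sum was HBB, the beta chain of haemoglobin, at 33.3, 36.4, 0 and 0 CPM in dHL-60 and 0 and 0.111 CPM in uHL-60. Endothelial, epithelial and fibroblast markers had 2 of 4 tested higher, and PECAM1 made up most of their sum. Of the genes tested, 2 lymphocyte markers and 2 red cell and platelet markers had 3 or fewer counts in 1 state. Such genes could pass the filter on counts only through the other state, so their direction was largely set beforehand. The calls in these small sets stand against 30.5% higher and 26.0% lower among all kept symbols. The sums cover all listed members, set-aside genes such as CD79B, HBA1 and KRT8 included. The part of other cells in the results was not tested.

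Genes for inflammatory messengers were higher in dHL-60 without any stimulus. Of 17 kept chemokine genes, 13 had enough counts to test. A gene with almost no uHL-60 counts could pass that filter only through dHL-60, so its direction was largely set beforehand. All 13 tested chemokine genes were higher, with a median log2 fold change of 6.39. The median was 4.88 with 5 members of 3 or fewer counts in 1 state set at their count ratio. The count fell to 7 of 13 without uHL-60 at 4 h, with a median of 3.96, and to 7 of the 9 that could still be tested without either dHL-60 library at 4 h. It was 7 of 13 without a time term and 11 in DESeq2. CXCL8, the neutrophil attractant interleukin-8 (chromosome 4, 73740569 to 73743716), had 1316, 527, 107 and 64.5 CPM in dHL-60 against 10.9 and 6.92 CPM in uHL-60 (log2 fold change 4.88 ± 0.76, adjusted p = 0.000765). CCL2, which attracts monocytes, had 698, 389, 156 and 136 CPM in dHL-60 against 3.57 and 1.49 CPM in uHL-60 (6.97 ± 0.39). CXCL3, another ligand of the neutrophil receptor CXCR2, had 30.4, 16.6, 0.687 and 0.638 CPM in dHL-60 against 0.0534 and 0 CPM in uHL-60. In these 3 genes dHL-60 replicate 1 was above replicate 2 at each time, with the wider gap at 4 h. CCL4 rose by 8.04 ± 1.06, with 449 and 169 CPM in dHL-60 at 4 h and 6.58 and 3.19 CPM at 24 h, against 0.640 and 0.277 CPM in uHL-60.

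Of 29 cytokine and cytokine receptor genes, 22 were higher and 0 were lower in edgeR, with a median log2 fold change of 2.01. Here 3 tested members had 3 or fewer counts in 1 state, so their direction was largely set beforehand. IL1B, interleukin-1 beta, had 266, 114, 17.7 and 12.8 CPM in dHL-60 against 5.39 and 4.43 CPM in uHL-60 (log2 fold change 3.31 ± 0.79). Its natural antagonist IL1RN had 464, 219, 22.7 and 18.8 CPM in dHL-60 against 0.640 and 0.830 CPM in uHL-60 (7.19 ± 0.96). IL1R2, a decoy receptor for interleukin-1, was at least 29.6-fold higher, since uHL-60 had 0 counts. All 3 genes of the interleukin-1 system were highest in the 4 h dHL-60 libraries. TNFRSF1B, a TNF receptor, rose by 2.01 ± 0.35, IL17RA, the interleukin-17 receptor, by 1.74 ± 0.35 and IFNGR1, a chain of the interferon-gamma receptor, by 1.98 ± 0.25. TNFRSF1A was at 0.31 ± 0.19 and was not called.

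In the pathway that carries Toll-like receptor signals to the transcription factor NF-kB, 13 of 24 tested genes were higher and 1 was lower. Among all kept symbols the shares were 30.5% and 26.0%. The median log2 fold change of the list was 0.57, or 0.46 without uHL-60 at 4 h and 0.77 without uHL-60 at 24 h. The genes with large differences were the adaptor, the second set of NF-kB subunits and the inhibitors. MYD88, the adaptor, had 251, 215, 118 and 133 CPM in dHL-60 against 25.9 and 29.9 CPM in uHL-60 (log2 fold change 2.59 ± 0.29). NFKB2 had 321, 209, 67.6 and 61.2 CPM in dHL-60 against 4.54 and 3.21 CPM in uHL-60 (5.09 ± 0.43), and its partner RELB rose by 3.23 ± 0.38. NFKBIA, the inhibitor that holds NF-kB in the cytoplasm, had 790, 389, 99.6 and 85.3 CPM in dHL-60 against 26.3 and 24.0 CPM in uHL-60 (3.04 ± 0.60, adjusted p = 0.0026). None of these genes had a uHL-60 library within the dHL-60 range. NFKB1 was at 0.22 ± 0.22 and IRAK1, a kinase below MYD88, at -0.09 ± 0.18, and neither was called. NFKB1 was called higher without uHL-60 at 24 h, at 0.65 (adjusted p = 0.011). CHUK, a kinase of the IKK complex, was the gene called lower, at -1.07 ± 0.22.

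The promoters of genes in these lists were searched for NF-kB motifs, because all tested chemokine genes and 13 of 24 genes of the pathway were called higher. The search covered the 250 bases before each gene start (RefSeq, GRCh38.p14), on both strands, for the degenerate NF-kB consensus. Among 14 chemokine promoters 7 held at least 1 match, as did 6 of 22 in the MYD88 and NF-kB list (27.3%), against 9.57% of all 27305 promoters. These list counts cover every listed gene with a promoter, tested or not, and include set-aside genes such as CXCL2 and REL. The 6 in the MYD88 and NF-kB list were IRAK1, NFKB1, REL, NFKBIA, NFKBIZ and TNFAIP3, of which IRAK1 and NFKB1 were not called. The lists were chosen with earlier results of these data known, and a narrower set of exact words was searched first. Among kept and tested genes with a promoter in RefSeq, a match was found in 11.9%. The share was 14.2% of those higher in dHL-60, 10.5% of those lower and 11.2% of those not called. The 200 bases before the start of 3 of these genes are printed to show such matches, with the matched letters of either strand in capitals and TNFAIP3, the NF-kB feedback inhibitor A20, chosen after its values were seen. TNFAIP3 had 227, 141, 51.4 and 35.7 CPM in dHL-60 against 23.5 and 16.1 CPM in uHL-60 (log2 fold change 2.16 ± 0.40). NFKBIA is shown at chr14:35404750-35404949 on the minus strand, TNFAIP3 at chr6:137867059-137867258 on the plus strand and CXCL3 at chr4:74038690-74038889 on the minus strand, each read 5′ to 3′ along the gene. A match describes the letters only and is not evidence of binding.
NFKBIA: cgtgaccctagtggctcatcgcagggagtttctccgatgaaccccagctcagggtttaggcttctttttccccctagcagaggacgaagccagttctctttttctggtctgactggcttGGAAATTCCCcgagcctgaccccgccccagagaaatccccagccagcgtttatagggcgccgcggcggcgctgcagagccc
TNFAIP3: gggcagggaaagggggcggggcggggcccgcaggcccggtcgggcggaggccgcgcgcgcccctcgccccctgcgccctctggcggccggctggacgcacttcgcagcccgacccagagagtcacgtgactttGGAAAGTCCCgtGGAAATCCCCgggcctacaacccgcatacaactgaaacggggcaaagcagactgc
CXCL3: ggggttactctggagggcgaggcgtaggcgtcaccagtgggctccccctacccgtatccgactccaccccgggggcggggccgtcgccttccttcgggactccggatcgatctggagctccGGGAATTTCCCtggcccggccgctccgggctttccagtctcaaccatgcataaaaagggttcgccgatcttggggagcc

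Of 28 tested myeloid transcription factors, 19 were higher in dHL-60 and 1 was lower, with a median log2 fold change of 0.97. This median was 0.77 without uHL-60 at 4 h and 1.34 without uHL-60 at 24 h. SPI1, or PU.1, had 629, 448, 242 and 291 CPM in dHL-60 against 233 and 229 CPM in uHL-60 and missed the threshold (log2 fold change 0.69 ± 0.27, adjusted p = 0.0534). GFI1, a repressor needed for neutrophils, rose by 0.67 ± 0.18, and MYB, a factor of progenitors, was at -0.40 ± 0.20 and was not called. GFI1 lost its call without uHL-60 at 4 h (adjusted p = 0.0641), SPI1 was called without dHL-60 at 24 h replicate 1 or uHL-60 at 24 h, and MYB without uHL-60 at 24 h. KLF4 had 10.3, 9.70, 2.40 and 3.59 CPM in dHL-60 against 0 and 0.277 CPM in uHL-60 (5.26 ± 0.87). EGR2 had 77.6, 19.3, 1.09 and 0.718 CPM in dHL-60 against 0.0534 and 0 CPM in uHL-60, with a wide gap between the 4 h replicates. RXRA, the partner of retinoic acid and vitamin D receptors, rose by 1.13 ± 0.21.

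Targets of both nuclear receptors used to differentiate HL-60 cells were higher. Of 7 tested genes known to respond to retinoic acid, 5 were higher and 0 lower, and of 11 tested targets of the vitamin D receptor 9 were higher and 0 lower. The count fell to 4 of 11 without uHL-60 at 4 h, with a median log2 fold change of 2.04 against 2.57. DHRS9, a retinol dehydrogenase, rose by 3.88 ± 0.70. Among vitamin D targets, CD14 is described above, SEMA6B, a semaphorin, rose by 6.15 ± 0.43 and DUSP10, a phosphatase, by 2.57 ± 0.29. In the vitamin D list 2 tested members had 3 or fewer counts in 1 state, so their direction was largely set beforehand. Many of these genes also belong to the myeloid lists, so the counts do not separate the agents.

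The genes of DNA replication and mitosis were lower in dHL-60. Of 37 tested, 36 were lower and 0 higher, with a median log2 fold change of -1.81. TOP2A, the topoisomerase that untangles chromosomes (chromosome 17, 40388525 to 40417896), had 87.4, 110, 86.7 and 95.6 CPM in dHL-60 against 652 and 645 CPM in uHL-60 (log2 fold change -2.77 ± 0.17, adjusted p = 4.76e-06). BUB1B, a kinase of the spindle checkpoint, had 22.0, 29.6, 27.3 and 24.6 CPM in dHL-60 against 213 and 197 CPM in uHL-60 (-2.98 ± 0.18). The 4 dHL-60 libraries of both genes lay close together and far below uHL-60, at 4 h as at 24 h. CDC45, a part of the replicative helicase, had 14.7, 15.5, 22.9 and 27.4 CPM in dHL-60 against 128 and 125 CPM in uHL-60 (-2.71 ± 0.21), with the 24 h dHL-60 pair above the 4 h pair. The MCM genes, whose products form the helicase ring, fell by smaller amounts, with MCM2 at -1.55 ± 0.16, MCM3 at -1.88 ± 0.17, MCM4 at -1.81 ± 0.20 and MCM7 at -1.10 ± 0.16. MKI67, the proliferation marker Ki-67, had 186, 231, 90.6 and 119 CPM in dHL-60 against 642 and 699 CPM in uHL-60 (-2.21 ± 0.26). Transcripts of the cycle were therefore reduced and still measurable in all 4 dHL-60 libraries. The one gene not called was E2F2, at -0.60 ± 0.40. It was called lower without uHL-60 at 4 h, at -1.55.

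Promoters of this list were searched in the same way for 3 elements known from cell cycle genes. The list counts again include set-aside genes, such as TYMS, PRIM1 and RRM2. E2F motifs, searched as TTTGGCGC, TTTCCCGC and TTTCGCGC, were found in 12 of 33 promoters of the list (36.4%) and in 2.38% of all 27305. The CCAAT box was found in 26 of 33 (78.8%) and in 33.0% of all. The cell cycle homology region, searched as TTTGAA, was found in 8 of 33 (24.2%) and in 13.6% of all. Among kept and tested genes with a promoter in RefSeq, E2F motifs were found in 3.77%. The share was 5.29% of those lower in dHL-60, 2.27% of those higher and 3.84% of those not called. The 200 bases before 4 starts are printed, 2 from the replication helicase with E2F motifs and 2 mitotic genes with the CCAAT box and the homology region. MCM6 (chr2:135876444-135876643, minus strand) and PLK1 (chr16:23678689-23678888, plus strand), a mitotic kinase, were chosen after their values were seen. MCM7 is at chr7:100101398-100101597 and TOP2A at chr17:40417897-40418096, both on the minus strand. Capitals mark every match on either strand, and overlapping E2F matches run together, as in TTTGGCGCGAAA, which holds TTTGGCGC and the reverse of TTTCGCGC.
MCM6: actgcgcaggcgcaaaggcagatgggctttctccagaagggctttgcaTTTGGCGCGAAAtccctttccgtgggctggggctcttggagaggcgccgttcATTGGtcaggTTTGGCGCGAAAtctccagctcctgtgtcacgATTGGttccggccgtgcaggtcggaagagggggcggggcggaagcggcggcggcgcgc
MCM7: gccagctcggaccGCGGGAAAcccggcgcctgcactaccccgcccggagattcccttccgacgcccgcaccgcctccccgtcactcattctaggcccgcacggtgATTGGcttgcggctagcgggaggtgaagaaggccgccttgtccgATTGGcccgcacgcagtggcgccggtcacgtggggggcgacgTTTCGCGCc
PLK1: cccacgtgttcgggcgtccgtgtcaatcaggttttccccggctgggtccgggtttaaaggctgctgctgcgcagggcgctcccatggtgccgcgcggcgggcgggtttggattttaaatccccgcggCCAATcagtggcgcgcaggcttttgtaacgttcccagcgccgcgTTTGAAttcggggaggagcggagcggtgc
TOP2A: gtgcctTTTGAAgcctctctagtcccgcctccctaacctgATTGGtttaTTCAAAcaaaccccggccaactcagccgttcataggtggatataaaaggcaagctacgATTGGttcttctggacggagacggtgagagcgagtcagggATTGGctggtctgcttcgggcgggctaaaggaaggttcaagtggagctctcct

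MCM6, with 2 such doubled E2F matches, had 62.1, 73.0, 98.8 and 91.5 CPM in dHL-60 against 424 and 434 CPM in uHL-60 (log2 fold change -2.42 ± 0.18). PLK1 had 56.7, 51.9, 25.5 and 38.1 CPM in dHL-60 against 161 and 136 CPM in uHL-60 (-1.84 ± 0.21). Both genes had every dHL-60 library below both uHL-60 libraries. Among the regulators of the cycle's start, 5 of 15 tested were higher and 5 lower, again near the shares of all kept symbols. Leaving out uHL-60 at 24 h gave 8 higher, and leaving out either dHL-60 library at 4 h gave 3 lower. CDKN1A, the inhibitor p21, had 38.0, 29.8, 2.92 and 2.95 CPM in dHL-60 against 0.427 and 0.221 CPM in uHL-60 (5.55 ± 0.54). CDKN2B, the inhibitor p15, rose by 3.87 ± 0.48 and BTG2, an antiproliferative factor, by 4.71 ± 0.71. CCND1, cyclin D1, fell by 1.27 ± 0.23 and RBL1, the pocket protein p107, by 1.62 ± 0.16, both on the log2 scale.

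**Figure D3:**
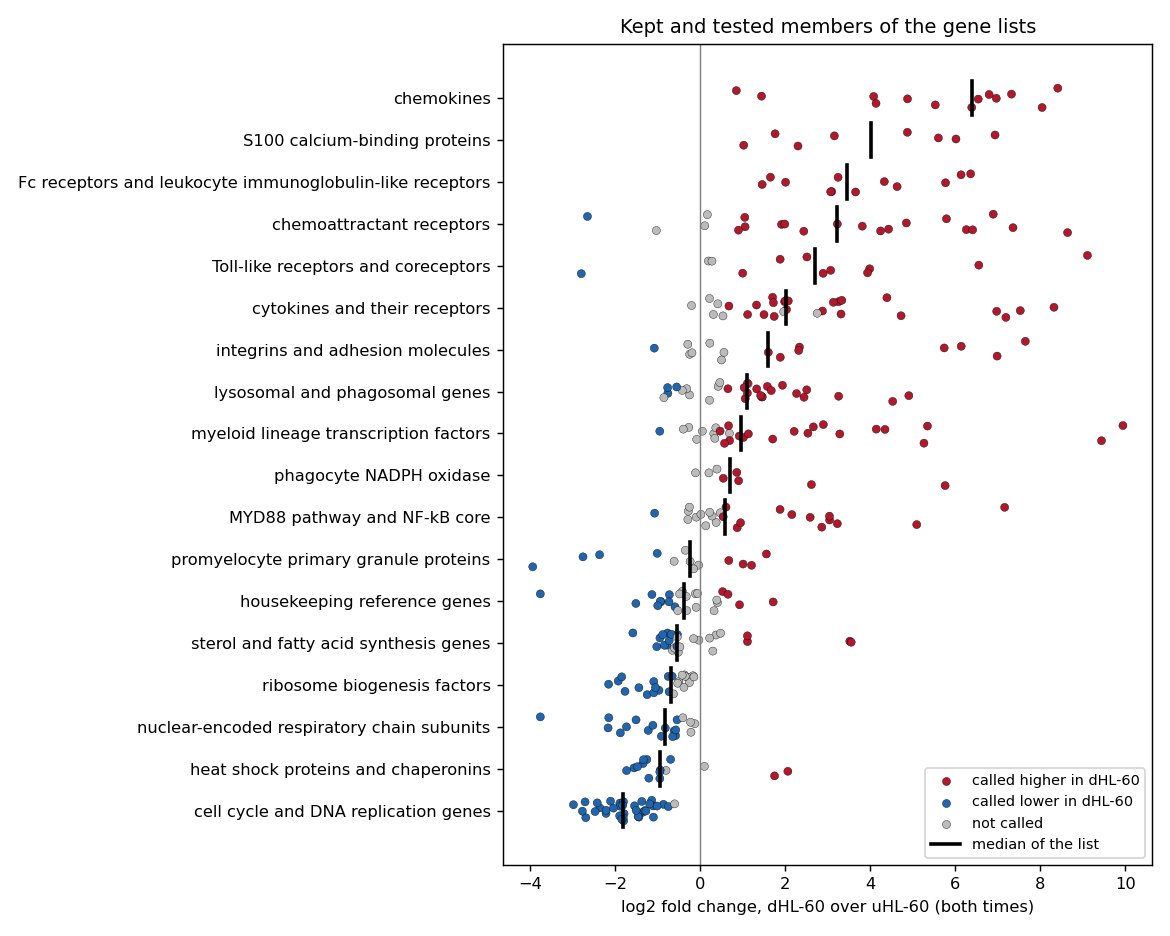
Log2 fold change of dHL-60 over uHL-60 (x axis) for the kept and tested members of 18 gene lists (rows), 1 point per gene, red for called higher, blue for called lower and grey for not called, with the list median as a black bar. The lists run from a median of 6.39 for chemokines to -1.81 for cell cycle genes; fitted values of members with 3 or fewer counts in 1 state depend on the prior count.

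Growth genes of the progenitor did not move together. KIT, the stem cell factor receptor, had 89.4, 89.9, 77.1 and 78.1 CPM in dHL-60 against 180 and 203 CPM in uHL-60 (log2 fold change -1.20 ± 0.16), and FLT3, the receptor for FLT3 ligand, had 9.47, 10.2, 28.9 and 31.4 CPM in dHL-60 against 60.9 and 69.6 CPM in uHL-60 (-1.95 ± 0.29). For both receptors all dHL-60 libraries were lower. MYC, which is amplified in HL-60, had 1233, 1139, 2001 and 2576 CPM in dHL-60 against 1850 and 1578 CPM in uHL-60, and these ranges overlapped (-0.09 ± 0.28). Without uHL-60 at 24 h MYC was called lower, at -0.65 (adjusted p = 0.0278). NPM1, a nucleolar chaperone, fell by 1.32 ± 0.27 on the log2 scale and TFRC, the transferrin receptor, by 1.00 ± 0.24. TFRC lost its call without uHL-60 at 4 h (adjusted p = 0.109). CSF2RB, a shared chain of cytokine receptors, and CD33 rose by 1.35 ± 0.18 and 1.46 ± 0.19.

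Genes that build ribosomes and fold proteins were lower, above all at 4 h. Of 24 tested ribosome biogenesis factors, 13 were lower and 0 higher, with a median log2 fold change of -0.70. The count was 8 without uHL-60 at 4 h (median -0.18) and 24 without uHL-60 at 24 h (median -1.14). DDX21, a nucleolar RNA helicase (chromosome 10, 68956170 to 68985068), had 119, 125, 308 and 328 CPM in dHL-60 against 681 and 600 CPM in uHL-60 (log2 fold change -1.77 ± 0.31). UTP20, a part of the small subunit processome, had 18.8, 20.9, 44.3 and 49.9 CPM in dHL-60 against 140 and 125 CPM in uHL-60 (-2.16 ± 0.28), and FBL, fibrillarin, fell by 1.93 ± 0.25. In DDX21 and UTP20 the 4 h pair was the lowest and the 24 h pair lay between it and uHL-60. Of 15 chaperone genes, 11 were lower and 2 higher, the higher ones being HSPB1 and BAG3. Their median log2 fold change was -0.95, or -0.55 without uHL-60 at 4 h and -1.66 without uHL-60 at 24 h. BAG3 lost its call with 3 of 6 libraries left out in turn (adjusted p up to 0.362). CCT7, a subunit of the chaperonin that folds actin and tubulin, had 131, 116, 233 and 241 CPM in dHL-60 against 596 and 516 CPM in uHL-60 (-1.73 ± 0.25).

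Of 19 nuclear-encoded respiratory chain genes, 15 were lower and 0 higher, with a median log2 fold change of -0.82. Leaving out uHL-60 at 4 h gave 9 lower, with a median of -0.52, and leaving out dHL-60 at 4 h replicate 2 gave 10. UQCRC2, a subunit of complex III, fell by 0.91 ± 0.20 on the log2 scale, and CYCS, cytochrome c, had 88.4, 93.8, 363 and 247 CPM in dHL-60 against 482 and 398 CPM in uHL-60 (-1.51 ± 0.40). CYCS lost its call without dHL-60 at 4 h replicate 2 or without uHL-60 at 4 h, with adjusted p up to 0.193. Enzymes of serine synthesis were also lower: PHGDH, the first of the pathway, had 24.3, 34.0, 11.2 and 10.4 CPM in dHL-60 against 134 and 131 CPM in uHL-60 (-2.94 ± 0.30), and PSAT1, the second, fell by 2.69 ± 0.25. The dHL-60 libraries were lower in each of these genes at both times. In the wider list of amino acid and stress response genes 8 of 21 were lower and 0 higher (2 higher without uHL-60 at 24 h), and XBP1 and HSPA5 of the unfolded protein response were at 0.12 ± 0.18 and -0.04 ± 0.20. SDHA, used as a reference gene, fell by 3.76 ± 0.18, but it has pseudogenes that share part of its sequence, so its value is uncertain.

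Lysosomal genes went the other way. Of 29 tested, 18 were higher and 3 were lower, against 30.5% and 26.0% of all kept symbols. The list had a median log2 fold change of 1.11. CTSH, a cathepsin, had 88.0, 86.2, 49.7 and 44.5 CPM in dHL-60 against 2.83 and 1.61 CPM in uHL-60 (log2 fold change 4.91 ± 0.22). TFEB, the factor that drives lysosome genes, had 24.3, 20.2, 7.50 and 8.22 CPM in dHL-60 against 0.480 and 0.664 CPM in uHL-60 (4.53 ± 0.46). No dHL-60 library of either gene came near the uHL-60 range. GRN, progranulin, and PSAP, prosaposin, rose by 1.94 ± 0.21 and 1.11 ± 0.20, while GLB1, LIPA and the proton pump subunit ATP6V1H were lower. LIPA lost its call with 3 of 6 libraries left out in turn, and ATP6V1H without uHL-60 at 4 h.

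In the remaining lists genes were called in both directions. The counts in this and the next paragraphs stand against 30.5% higher and 26.0% lower among all kept symbols. Counts near these shares, such as those of glycolysis, are not a trait of a list. In sterol and fatty acid synthesis 11 of 26 tested genes were lower and 4 higher, with 7 lower without dHL-60 at 24 h replicate 1 and 7 higher without uHL-60 at 24 h. The desaturases FADS1 and FADS2 rose by 3.52 ± 0.60 and 3.55 ± 0.59, whereas ACACA, the enzyme that commits carbon to fatty acids, fell by 1.58 ± 0.23 on the log2 scale. In glycolysis and hypoxia 9 of 26 were higher and 5 lower, with 3 to 8 lower as single uHL-60 libraries were left out. HK3, the hexokinase of myeloid cells, had 267, 192, 81.2 and 76.7 CPM in dHL-60 against 4.54 and 5.43 CPM in uHL-60 (4.69 ± 0.45), while ENO1, enolase, fell by 1.23 ± 0.23. Of 15 antioxidant and iron genes, 6 were higher and 5 lower. HMOX1, the haem-degrading enzyme, rose by 6.42 ± 0.85 and TXN, thioredoxin, fell by 2.18 ± 0.26.

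Of 25 genes of apoptosis, 10 were higher and 4 lower, and with 4 of the 6 libraries left out in turn 1 was lower. BCL2A1, a survival gene, had 87.4, 50.6, 8.64 and 7.98 CPM in dHL-60 against 1.92 and 2.05 CPM in uHL-60 (log2 fold change 3.55 ± 0.68), and BCL2 itself fell by 0.89 ± 0.24 on the log2 scale. BCL2 lost its call without uHL-60 at 4 h (adjusted p = 0.16). Of 11 inflammasome genes, 7 were higher and 0 lower. NLRP1, a sensor that forms inflammasomes, had 19.3, 22.6, 30.0 and 34.3 CPM in dHL-60 against 0.107 and 0.0554 CPM in uHL-60.

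Of 12 antigen presentation genes, 10 were higher and 0 lower. Here 2 tested members had 3 or fewer counts in 1 state, so their direction was largely set beforehand. CD86, a costimulatory ligand for T cells, had 107, 109, 84.4 and 83.5 CPM in dHL-60 against 1.39 and 3.10 CPM in uHL-60 (log2 fold change 5.41 ± 0.37), and HLA-E, a non-classical class I gene, rose by 1.90 ± 0.25. Of 18 interferon-stimulated genes, 8 were higher and 2 lower, with 0 lower without dHL-60 at 24 h replicate 2 and 4 lower without uHL-60 at 4 h. BST2, tetherin, rose by 2.40 ± 0.24, and OAS3, a sensor of double-stranded RNA, fell by 1.28 ± 0.36. OAS3 lost its call with 3 of 6 libraries left out in turn (adjusted p up to 0.196). Of 24 genes often used as references, 4 were higher and 9 lower, against 30.5% and 26.0% of all kept symbols. Their median log2 fold change was -0.37. Only 5 were lower without uHL-60 at 4 h. ACTB, beta-actin, had 20275, 16779, 11199 and 11467 CPM in dHL-60 against 4396 and 4340 CPM in uHL-60 (1.72 ± 0.26), so this common reference gene separated the states without overlap.

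The cell states were further apart at 4 h than at 24 h. With each time tested on its own, 64.7% of kept symbols were called at 4 h, 3362 higher (34.1%) and 3020 lower (30.6%). At 24 h 43.3% were called, 2410 higher (24.4%) and 1863 lower (18.9%). The median absolute log2 fold change over all kept symbols was 0.94 at 4 h and 0.58 at 24 h. Of the symbols called at both times 3711 had the same direction and 34 the opposite one. The difference between the times was itself called for 1142 symbols (11.6%), with 486 positive (4.93%) and 656 negative (6.65%). Leaving out dHL-60 libraries in turn, the positive calls ranged from 251 (without 24 h replicate 1) to 855 (without 4 h replicate 2) and the negative ones from 525 to 1129 (without 4 h replicate 2). The gap to uHL-60 was smaller in size at 24 h for 1054 of these 1142 symbols (92.3%), and for 72.3% of all kept symbols tested. Each time rests on 1 uHL-60 library, whose spread was taken to be that of the dHL-60 pairs.

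Several lists with mostly higher genes had called negative differences between the times more often than the 6.65% of all kept symbols. That share is over symbols of both directions and is not a like measure for such lists. Of the 656 negative differences, 629 were of symbols higher in dHL-60 at 4 h. The list counts are given for description. Negative differences were found for 6 of 8 S100 genes, 12 of 29 cytokine and receptor genes and 6 of 24 MYD88 and NF-kB genes. The log2 fold change of S100A8 was 7.47 at 4 h and 4.88 at 24 h, and the difference between the times, 24 h minus 4 h, was -2.59 (adjusted p = 0.0013). NFKBIA was 4.48 higher at 4 h and 1.95 higher at 24 h, on the log2 scale, and CXCL8 was 6.40 and 3.64 higher. IL1B was 5.14 higher at 4 h and 1.79 higher at 24 h. These genes stayed called as higher at both times. FFAR2, a receptor for short-chain fatty acids that was among the 6 kept genes with the largest negative difference, had 129, 81.1, 3.15 and 1.52 CPM in dHL-60 against 0.107 and 0.443 CPM in uHL-60. CCR2, the receptor for CCL2, was called higher at 4 h (log2 fold change 1.61) and lower at 24 h (-1.18), at 17.3, 23.1, 2.57 and 3.75 CPM in dHL-60 against 6.62 and 7.09 CPM in uHL-60. The call at 24 h was lost without dHL-60 at 24 h replicate 1 (adjusted p = 0.0842).

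**Figure D4:**
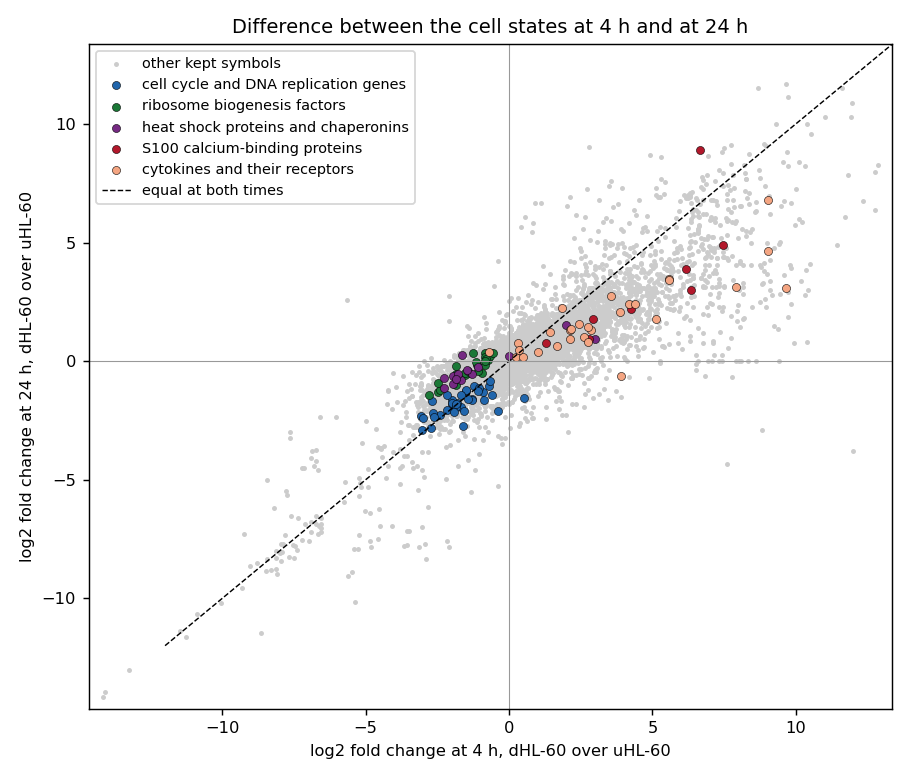
Log2 fold change of dHL-60 over uHL-60 at 24 h (y axis) against that at 4 h (x axis) for all kept and tested symbols (grey) and 5 gene lists (colours), with a dashed line where both are equal. Ribosome biogenesis factors and most chaperones lie below 0 at 4 h and closer to 0 at 24 h, though HSPB1 and BAG3 lie above 0 at 4 h, most cytokine and S100 genes lie to the right of the line, and cell cycle genes lie near it.

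Some genes lower in dHL-60 came closer to uHL-60 at 24 h too. Of 13 primary granule genes 3 had a called positive difference between the times, against 4.93% of all kept symbols. That share is over symbols of both directions, and 481 of the 486 positive differences were of symbols lower in dHL-60 at 4 h. The log2 fold change of PRTN3 was -3.93 at 4 h and -1.11 at 24 h, a difference of 2.82 (adjusted p = 0.00042). Without dHL-60 at 24 h replicate 1 its call at 24 h was lost (adjusted p = 0.0676). All 24 ribosome biogenesis genes were called lower at 4 h, against 30.6% of all, and 9 were at 24 h, and 13 had a called positive difference between the times. DDX21 was at -2.49 at 4 h and -0.92 at 24 h. Of 15 chaperones 12 were lower at 4 h, 8 lower at 24 h and 9 called positive differences. CALR, calreticulin, had 1098, 1023, 3310 and 4214 CPM in dHL-60 against 3983 and 3385 CPM in uHL-60, and was lower at 4 h only (log2 fold change -1.91), with 0.15 at 24 h. MYC was called lower at 4 h (-0.64) and at 24 h stood at 0.54, not called, with a difference of 1.18 (adjusted p = 0.046). The calls of MYC at 4 h and of its difference were each lost without either dHL-60 library at 24 h, with adjusted p up to 0.145 and 0.338. At 24 h MYC was instead called higher without either dHL-60 library at 4 h, with a log2 fold change of up to 0.52 (lowest adjusted p = 0.0152). The call of CALR's difference was lost without dHL-60 at 24 h replicate 2 (adjusted p = 0.052).

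The kept genes with the largest positive differences between the times were low at 4 h and partly back at 24 h. IGLL1, the surrogate light chain gene, had 1.49, 2.14, 18.1 and 20.7 CPM in dHL-60 against 216 and 270 CPM in uHL-60. GAL, the neuropeptide galanin, had 0.213, 0.623, 7.67 and 7.18 CPM in dHL-60 against 43.1 and 37.6 CPM in uHL-60. TERT, the catalytic subunit of telomerase, had 0.106, 0.178, 1.95 and 1.52 CPM in dHL-60 against 10.1 and 9.08 CPM in uHL-60. The 24 h pair of each gene was several times above the 4 h pair and below both uHL-60 libraries. POLR3G, IMMP2L and GALNT18 completed this set.

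In the cell cycle list, 1 of 37 genes had a called positive difference between the times and 3 had a negative one. These counts were near the 4.93% and 6.65% of all kept symbols, which are shares over symbols of both directions. Of the 37 genes, 35 were lower at 4 h and all 37 at 24 h, against 30.6% and 18.9% of all kept symbols. The median log2 fold change of the list was -1.66 at 4 h and -1.76 at 24 h. TOP2A was at -2.72 at 4 h and -2.82 at 24 h, with a difference of -0.10 that was not called. MKI67 was further from uHL-60 at 24 h (-2.74) than at 4 h (-1.62), with a called difference of -1.12 (adjusted p = 0.0395). That call was lost without dHL-60 at 24 h replicate 1 (adjusted p = 0.176). MCM6 was at -2.65 at 4 h and -2.19 at 24 h, a difference of 0.46 that was not called.

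The genes with the largest losses need caution. The 12 kept symbols picked by size were MTRNR2L9, MTRNR2L1, MTRNR2L6, SHISA9, ABCC9, FAM220A, ASTN2, PARP15, CRX, QRFPR, PDE6A and CHTF8, and 11 of them had 2 or fewer counts over the 4 dHL-60 libraries. The MTRNR2L genes are nuclear copies of a mitochondrial ribosomal RNA stretch, so reads may fall on several loci. ABCC9, a subunit of potassium channels, had 0 CPM in all dHL-60 libraries and 24.8 and 23.1 CPM in uHL-60, and was at least 405-fold lower in dHL-60. PARP15, a member of the PARP family, had 0.106, 0, 0 and 0 CPM in dHL-60 against 23.3 and 24.4 CPM in uHL-60. CHTF8, a replication clamp loader subunit, had 1.17, 2.31, 1.66 and 1.44 CPM in dHL-60 against 177 and 197 CPM in uHL-60. Among symbols with at least 5 CPM in either state, those over 16-fold lower in dHL-60 made up 0.278% of kept symbols, 4.89% of symbols with near-identical copies, 15.6% of symbols with shared exons and 48.8% of those with more than 50% of their exon bases shared. The part of counting in this pattern was not tested.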

How the data were processed

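RNA was measured in 6 untreated libraries of HL-60 cells: 4 of dHL-60 (2 at 4 h, 2 at 24 h) and 2 of uHL-60 (1 at each time). Per the labels' protocols the libraries were made with a stranded mRNA kit. Per the submitters' processing notes the tools were featureCounts 2.0.1 from Subread, HISAT2 2.1.0, fastp 0.20.0, edgeR 3.36.0 and DESeq2 1.28.0, with GRCh38 as the build and no order given. The deposited values are raw counts per gene symbol, with no normalization by the authors. The counting settings, strand included, are not given in the sources used here.

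The uHL-60 columns were first put back in the row order of the symbols. Exon sharing (over 10% of exon bases on the same strand) came from GENCODE 29, and near-identical copies (over 25% of 31-base words shared with another gene) from its transcripts. Of 23575 symbols, 1840 shared exons, 2699 had copies, 378 had no exon model and 18658 were kept. Coordinates and promoters are those of RefSeq, GRCh38.p14. The degenerate NF-kB consensus replaced a narrower set of exact words that was searched first.

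Counts were scaled by TMM, filtered by edgeR's filterByExpr and tested with edgeR 4.0.16 (R 4.3.3) by the quasi-likelihood F test, with Benjamini-Hochberg adjustment over 11884 symbols and a threshold of 0.05. The main fit had cell state and time as additive terms (3 residual degrees of freedom). Each time and the difference between times came from a fit of group means (2 residual degrees of freedom). A standard error is the log2 fold change divided by the square root of F. Intervals and floors (3 counts) cover counting error only, and they limit genes with few counts. The scripts were tested on simulated data.

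Genes were named by rule: the 12 largest called changes each way, the most abundant and most changed members of each gene list, fixed marker genes, the 6 largest differences between times each way and the most abundant genes. Members and lists were chosen with earlier results of these data known. Alternatives were other scalings, no filter, DESeq2 1.42.0, limma-voom (limma 3.58.1), no time term, all 16 libraries, other sets of symbols and each library left out. A few items chosen by these rules are not reported here.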

Additional observations from a re-analysis of the deposited data

Results flagged for a closer look

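The gap between dHL-60 and uHL-60 differed between the times, by the test of the difference itself (24 h minus 4 h on the log2 scale), for several genes whose values at each time are given above. The difference was negative for FFAR2 (-7.40), IL1B (-3.35), CCR2 (-2.80), CXCL8 (-2.77), S100A8 (-2.59), NFKBIA (-2.54) and MKI67 (-1.12). For these genes other than MKI67 the dHL-60 level was nearer to uHL-60 at 24 h or passed below it. The difference was positive for GAL (4.27), TERT (3.67), IGLL1 (3.07), PRTN3 (2.82), CALR (2.06), DDX21 (1.57) and MYC (1.18). The differences of MKI67, MYC and CALR lost their call with single libraries left out. Each time has 1 uHL-60 library, and the part of that library in these differences was not tested.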

How the results depend on the processing

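The counts of kept symbols called with both times together (3010 higher, 2560 lower) stayed within 1.5 times under all alternatives, and ranged from 2368 to 3392 higher and from 1855 to 3043 lower with each of the 6 libraries left out in turn. Over all symbols those ranges were 2795 to 3960 and 2594 to 3910. At 4 h, leaving out dHL-60 libraries gave 3284 to 3419 kept symbols higher and 2850 to 3029 lower, and at 24 h 1875 to 2692 higher and 1397 to 2318 lower. The counts least stable were those of the difference between the times: 251 to 855 kept symbols positive and 525 to 1129 negative, or 296 to 996 and 594 to 1322 over all symbols. The cause was not tested. Upper-quartile scaling moved the median log2 fold change of kept symbols to 0.17, against 0.05, so changes under about that size depend on scaling; the share of calls that were higher was 61.1%, against 54.0%.

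For 183 genes of the text, 1969 of 2006 values under alternatives other than leaving out a library kept their direction and side of the threshold, 22 lost the call, 13 gained it and 2 turned. HBB turned to -1.24 in DESeq2 and, with libraries left out, ranged from -3.72 to 11.91, and TRIM69 to -0.15 with the rows as deposited. Without uHL-60 at 4 h, which leaves the 24 h comparison, CCR2 turned to -1.19 and SRGN to 0.78, and without uHL-60 at 24 h they were at 1.60 and -0.74. The glycolysis median turned to 0.02 with upper-quartile scaling and 0.04 without a time term, against -0.10. It was 0.05 without dHL-60 at 4 h replicate 2 and 0.13 without uHL-60 at 4 h. The antioxidant and iron median turned to -0.23 without dHL-60 at 4 h replicate 2, against 0.29. For the regulators of the cycle's start the median turned to -0.09 without uHL-60 at 4 h, against 0.05. Without a time term 16 genes lost their call, MPO, PRTN3, ELANE and CYCS among them.

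No paired analysis was possible because the uHL-60 libraries carry no replicate numbers. Depth limits genes with few counts, for which only bounds or wide intervals were given.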

Other observations

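Several genes of other tissues had uneven levels among the dHL-60 libraries. COL1A1, a collagen chain of connective tissue, had 6.17, 5.43, 0 and 9.02 CPM in dHL-60 against 0.907 and 0.0554 CPM in uHL-60. COL1A2, its partner chain, had 3.51, 2.85, 0 and 7.90 CPM in dHL-60 against 0.320 and 0.0554 CPM in uHL-60. FN1, fibronectin, chosen after its values were seen, had 6.70, 4.80, 0 and 13.2 CPM in dHL-60 against 1.17 and 0.166 CPM in uHL-60. In all 3 genes dHL-60 at 24 h replicate 1 was at 0 while its partner replicate was the highest library. HBB, given above, was instead high in both dHL-60 libraries at 4 h and at 0 in both at 24 h. The source of these counts was not tested.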
